A study of Mus musculus with 5 samples.

Results

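The 10 direct targets of the transcription factor p53 described here, in adipocytes of mice labelled as an adipocyte-specific Prmt1 knockout, are Cdkn1a, Mdm2, Ccng1, Bax, Bbc3, Pmaip1, Trp53inp1, Zmat3, Gdf15 and Btg2. They were found by gene symbol in the deposited transcript table, where these 10 of 24531 genes hold 14 of 36779 transcript rows, and the rows were summed per gene. Messenger RNA was sequenced from primary adipocytes of the epididymal fat depot of C57BL/6N mice after 12 weeks on a high-fat diet. The knockout group, Prmt1 FKO, had 2 libraries and is described as deleted in adipocytes for Prmt1, the main enzyme for asymmetric dimethylation of arginine. The control group, Prmt1 f/f, had 3 libraries; its titles describe floxed mice that keep the gene and its genotype label is WT. The diet and the strain were shared by both groups, the labels give neither the Cre line nor the deleted exons, and nothing in them says that the libraries came from separate mice, so p-values measure the spread between libraries only.

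p53 is a sequence-specific activator that accumulates after DNA damage and other stresses. Its targets stop the cell cycle (Cdkn1a, which encodes p21, and Btg2), kill the cell through the mitochondrial pathway (Bax, Bbc3 and Pmaip1) or shut p53 down again (Mdm2). In adipose tissue of obese mice p53 activity has been tied to inflammation and senescence, and p21 is among the most used markers of a senescent cell. The BTG proteins have another known link to the deleted enzyme, since BTG1 and BTG2 bind PRMT1 and modulate its activity.

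Prmt1 itself had 21.0 and 19.3 CPM in FKO, against 34.1, 29.4 and 32.3 CPM in f/f (log2 fold change -0.66, SE 0.142, edgeR adjusted p = 0.0171). It was 1.58-fold lower in FKO and still measured there, so these libraries do not show a lack of its message, and the counts do not say in which cells it remained. CPM are counts scaled to a common library size after correction of the libraries by the trimmed mean of M values (TMM). The libraries held 49981062 and 45665542 estimated counts in FKO and 43580154 to 57016997 in f/f, and the floor of 3 counts lay at 0.0526 to 0.0688 CPM. Differences were tested with edgeR's quasi-likelihood test over 14492 genes, with Benjamini-Hochberg adjusted p-values, and "rose" or "fell" is used for genes under an adjusted p of 0.05. Of the genes tested, 25.4% passed, of which 1730 rose in FKO (11.9% of genes tested) and 1944 fell (13.4%). The scaling sets part of this balance. Of the calls, 47.1% rose with TMM factors, 35.0% with upper-quartile factors, 26.1% without any factors and 26.9% on log2(FPKM + 0.1), and the median over genes was -0.05, -0.17, -0.27 and -0.24 on the log2 scale in these settings. The groups also differed in markers of other cells. The summed level of 11 adipocyte markers was 54882 to 60076 CPM in FKO and 37625 to 46054 CPM in f/f, and 3 of them rose. The 12 macrophage markers summed to 397 to 546 CPM in FKO and 939 to 1762 CPM in f/f, with 9 lower by the test and a median log2 fold change of -1.56. The 9 mesothelial markers with a row in the table summed to 17.1 to 26.7 CPM in FKO and 56.3 to 117 CPM in f/f, and all 9 fell. The 10 progenitor and fibroblast markers summed to 566 to 744 CPM in FKO and 1056 to 1724 CPM in f/f, and 4 fell. Of 8 endothelial markers 0 passed by edgeR, with sums of 481 to 529 CPM in FKO and 462 to 735 CPM in f/f (1 lower at an unadjusted p under 0.05, 1 by DESeq2 and 0 by limma-voom), and lymphocyte markers summed to 0.784 to 1.42 CPM in FKO and 0.909 to 3.09 CPM in f/f. The 6 mural markers summed to 452 to 456 CPM in FKO and 278 to 508 CPM in f/f, and 1 rose and 2 fell. Of 5 neutrophil markers 3 were tested and 0 passed by edgeR, while DESeq2 called 1 lower. The neutrophil sums were 1.93 to 2.42 CPM in FKO and 3.35 to 8.06 CPM in f/f. None of these macrophage, mesothelial or fibroblast markers with a row in the table was at 0 in every library of a group. The part of all these cells in the results that follow was not tested.

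The results turn on Cdkn1a and Btg2, with Ccng1 as a target whose counts did not pass, and the 250 bases before the transcript starts of these genes are shown so that their p53 sites can be compared. Sequences are from RefSeq, build GRCm38.p6, 5′ to 3′ on the strand of the gene, and 7 of the 10 genes matched an entry, with 11 windows. In Cdkn1a the window before the upstream start (chr17:29090729-29090978, plus strand) and in Ccng1 the window before its start (chr11:40755287-40755536, minus strand) have in capitals the closest match to the p53 full site, a 20-letter element made of a pair of 10-letter elements. In the window before the downstream Cdkn1a start (chr17:29093519-29093768, plus strand) capitals mark a pair of Sp1 cores, whose letters are GGGCGG, and a TATA box. The letters searched for the TATA box were TATAA. In Btg2 (chr1:134079156-134079405, minus strand) the capitals mark Sp1 cores and 1 cyclic AMP response element, which reads TGACGTCA.
Cdkn1a, upstream start: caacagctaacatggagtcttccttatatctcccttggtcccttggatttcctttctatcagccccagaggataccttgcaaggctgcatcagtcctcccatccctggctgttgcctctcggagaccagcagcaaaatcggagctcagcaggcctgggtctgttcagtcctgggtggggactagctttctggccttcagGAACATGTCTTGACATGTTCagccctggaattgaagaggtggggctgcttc
Cdkn1a, downstream start: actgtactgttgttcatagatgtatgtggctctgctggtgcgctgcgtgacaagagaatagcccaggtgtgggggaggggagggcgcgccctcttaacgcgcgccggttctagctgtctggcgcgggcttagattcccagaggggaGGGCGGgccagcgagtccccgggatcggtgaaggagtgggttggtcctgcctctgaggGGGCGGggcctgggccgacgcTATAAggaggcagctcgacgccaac
Ccng1: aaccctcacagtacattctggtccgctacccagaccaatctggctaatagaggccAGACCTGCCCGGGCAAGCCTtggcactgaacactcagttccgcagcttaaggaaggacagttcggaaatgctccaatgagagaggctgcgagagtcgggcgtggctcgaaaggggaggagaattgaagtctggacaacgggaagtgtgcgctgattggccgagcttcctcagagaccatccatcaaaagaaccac
Btg2: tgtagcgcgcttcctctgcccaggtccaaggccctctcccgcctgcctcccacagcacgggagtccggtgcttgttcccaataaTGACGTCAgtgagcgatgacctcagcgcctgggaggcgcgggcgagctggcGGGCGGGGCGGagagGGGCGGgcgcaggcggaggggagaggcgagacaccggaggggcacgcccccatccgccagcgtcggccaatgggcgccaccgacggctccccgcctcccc

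The upstream Cdkn1a window holds a p53 full site at 29090928 to 29090947 that differs from the consensus by 1 letter, and the Ccng1 window holds another with 1 letter differing at 40755462 to 40755481. Matches this close, searched on both strands, lie in 0.0761% of the 32851 windows of the RefSeq table. The best match differs by 3 letters in Bax and in the first of 3 Bbc3 windows (5.32% of all windows have 3 or fewer), by 5 letters in Mdm2, in both Gdf15 windows and in the downstream Cdkn1a window, and by 6 letters in Btg2. The Btg2 window holds 3 Sp1 cores, 2 of them overlapping, a motif found in 32.7% of all windows, and 1 cyclic AMP response element, found in 1.55%. The TATA box letters lie in 22.8% of all windows. These shares count Sp1 cores and TATA box letters on either strand, while the capitals mark them on the shown strand only. The upstream Cdkn1a window also holds 1 match to the TATA box letters, on the other strand. These matches are descriptions of the letters in short windows. The search allowed no gap between the 10-letter elements and covered only the 250 bases before each start. A window without a close match therefore does not show that the gene lacks a p53 site. Pmaip1, Trp53inp1 and Zmat3 had no window.

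Of the 10 p53 targets, 3 fell in FKO adipocytes, namely Cdkn1a, Btg2 and Pmaip1, and 0 rose by edgeR. The edgeR counts of 0 and 3 of 10 stand beside 11.9% and 13.4% of all genes tested. At an unadjusted p under 0.05, 3 genes were higher (Mdm2, Trp53inp1 and Zmat3) and 3 lower, and the share of all genes at that cut is not given here. DESeq2 called 1 higher and 3 lower, beside 2146 higher and 2479 lower of 15911 genes. By limma-voom 0 were higher and 3 lower, beside 1694 higher and 1654 lower of 14492 genes. All 10 passed the filter on low counts. Their median log2 fold change was -0.07, against -0.05 for all genes tested, and they ran from -1.76 to 0.58. In 4 of them every FKO library was below every f/f library (Cdkn1a, Bax, Pmaip1 and Btg2), in 4 every FKO library was above (Mdm2, Bbc3, Trp53inp1 and Zmat3), and in Ccng1 and Gdf15 the groups overlapped. Groups failed to overlap in 59% of all genes tested, so 8 of 10 is to be read against that share.

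**Figure D1:**
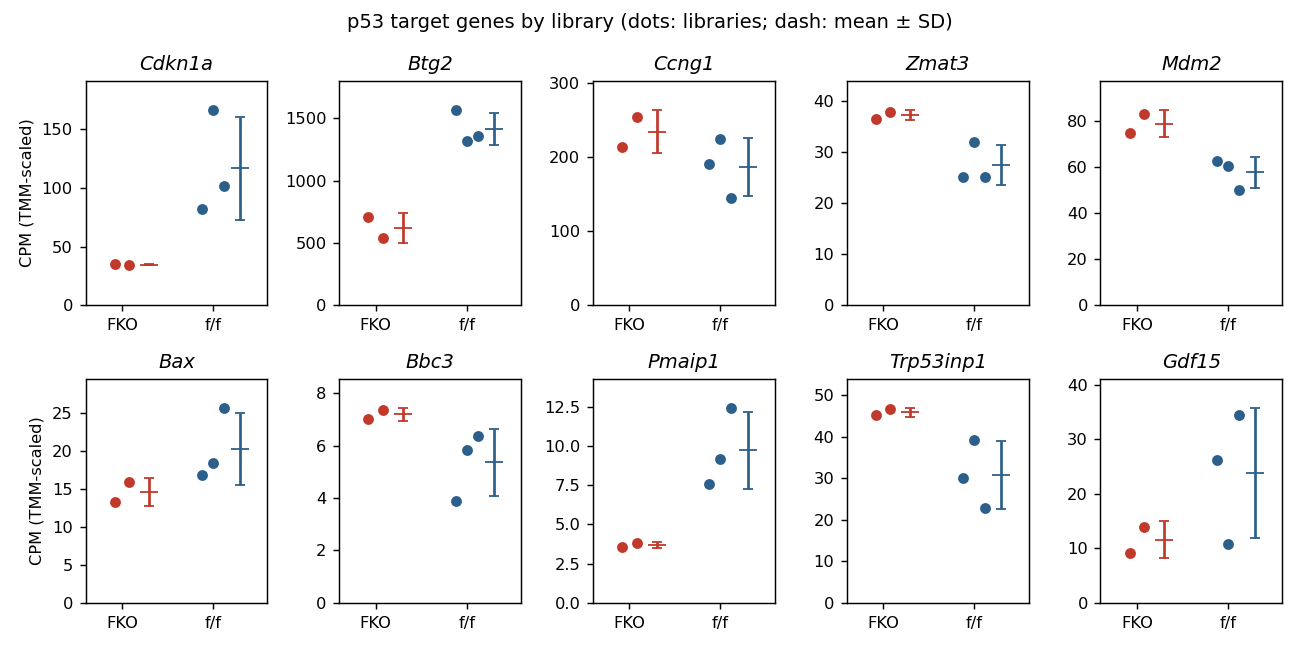
TMM-scaled CPM of the 10 p53 target genes in each library, with 2 FKO libraries (red) left of 3 f/f libraries (blue) and the mean ± SD beside the dots. Cdkn1a, Btg2 and Pmaip1 lie lower in every FKO library, at 34.5 ± 0.509, 621 ± 120 and 3.70 ± 0.208 CPM in FKO against 117 ± 44.0, 1416 ± 131 and 9.73 ± 2.47 CPM in f/f.

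Among the genes of cell cycle arrest, Cdkn1a (gene 12575, mm10 chr17:29090979-29100722, plus strand), whose product p21 binds and inhibits cyclin-dependent kinases, had 34.9 and 34.2 CPM in FKO, against 82.0, 166.1 and 101.9 CPM in f/f. The FKO libraries lay close together and below all 3 f/f libraries, and f/f replicate 2 was the highest. Cdkn1a was 3.38-fold lower in FKO (log2 fold change -1.76, SE 0.306, edgeR adjusted p = 0.00908). Without FKO replicate 1 or 2 the log2 fold change was -1.77 and -1.74, with edgeR adjusted p-values of 0.0632 and 0.0637. Those fits rest on a single FKO library, assumed to vary like the f/f libraries, and call 909 and 1022 genes in place of 3674. The macrophage, mesothelial and fibroblast marker sums given above were also lower in FKO. Among the f/f libraries, replicate 2 had the highest fibroblast and mural sums (1724 and 508 CPM) but the lowest macrophage and mesothelial sums (939 and 56.3 CPM). The part of these cells in the Cdkn1a difference was not tested. In a bulk sample fewer cells of a type and less RNA per cell cannot be told apart.

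Btg2 (mm10 chr1:134074865-134079155, minus strand), an antiproliferative gene that also responds to growth factors as an immediate early gene, was the most abundant of the 10. It had 705.1 and 535.9 CPM in FKO, against 1565, 1321 and 1361 CPM in f/f. No FKO library came near the lowest f/f library. Btg2 fell 2.28-fold (log2 fold change -1.19, SE 0.194, edgeR adjusted p = 0.00752), and without FKO replicate 2 the log2 fold change was -1.003 with an edgeR adjusted p of 0.0718. Per length, its level was 181 ± 31.8 FPKM in FKO and 481 ± 40.8 FPKM in f/f (SD, n = 2 and 3), rank 399 of 24531 genes in FKO and rank 101 in f/f.

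Ccng1 and Zmat3 did not pass the test. Ccng1, which encodes cyclin G1, a partner of protein phosphatase 2A in the control of MDM2, had 213.4 and 254.4 CPM in FKO, against 189.9, 223.8 and 145.1 CPM in f/f, and the groups overlapped (log2 fold change 0.33, SE 0.206, edgeR adjusted p = 0.277). Zmat3, an RNA binding zinc finger protein, had 36.6 and 38.0 CPM in FKO, against 25.2, 32.1 and 25.2 CPM in f/f. All FKO values of Zmat3 lay above f/f, by less than the test asks for (log2 fold change 0.44, SE 0.158, edgeR adjusted p = 0.0815). Without f/f replicate 2, the highest control library, its adjusted p was 0.0399. Zmat3 overlaps 4930429B21Rik by 177 bp, whose own counts were 27 and 55 in FKO and 16, 31 and 33 in f/f.

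The feedback gene Mdm2, which encodes the ubiquitin ligase that removes p53, had 74.9 and 83.1 CPM in FKO, against 62.8, 60.6 and 50.3 CPM in f/f. Both FKO libraries were above all f/f libraries, but the difference did not pass (log2 fold change 0.45, SE 0.154, edgeR adjusted p = 0.0715). DESeq2 called it higher, with an adjusted p of 0.0408. Trp53, the gene of p53 itself, had 13.5 and 17.1 CPM in FKO, against 16.6, 17.9 and 22.2 CPM in f/f, with overlapping groups (log2 fold change -0.30, SE 0.190, edgeR adjusted p = 0.276).

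Of the genes of cell death, Pmaip1 fell. Pmaip1 (mm10 chr18:66458604-66465558) encodes NOXA, a BH3-only protein that counters MCL1, and had 3.56 and 3.85 CPM in FKO, against 7.58, 9.17 and 12.4 CPM in f/f. Both FKO libraries lay below the lowest f/f library. The gene was 2.63-fold lower (log2 fold change -1.39, SE 0.259, edgeR adjusted p = 0.0112), on 160 and 162 counts in FKO and 342, 539 and 796 counts in f/f. Without FKO replicate 1 or 2 its edgeR adjusted p was 0.0847 and 0.0666, at log2 fold changes of -1.34 and -1.45.

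Bax, the pore-forming effector of the mitochondrial outer membrane, had 13.3 and 15.9 CPM in FKO, against 16.8, 18.4 and 25.7 CPM in f/f (log2 fold change -0.47, SE 0.217, edgeR adjusted p = 0.151). Bbc3, which encodes the BH3-only protein PUMA, had 7.02 and 7.37 CPM in FKO, against 3.90, 5.82 and 6.36 CPM in f/f (log2 fold change 0.42, SE 0.250, edgeR adjusted p = 0.251). The fold change of Bbc3 lay on the other side of 0 from those of Bax and Pmaip1, a difference between genes that was not tested. Trp53inp1, a stress protein that acts in autophagy and in the phosphorylation of p53, had 45.2 and 46.7 CPM in FKO, against 30.1, 39.2 and 23.0 CPM in f/f (log2 fold change 0.58, SE 0.222, edgeR adjusted p = 0.0973). The FKO libraries lay above f/f for both Bbc3 and Trp53inp1, and without f/f replicate 2 Trp53inp1 had a log2 fold change of 0.79 and an edgeR adjusted p of 0.0342.

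Gdf15, a secreted stress cytokine that acts on the hindbrain to reduce feeding, had 9.20 and 14.0 CPM in FKO, against 26.2, 10.8 and 34.4 CPM in f/f. The spread within f/f was over 3-fold, and f/f replicate 2 lay among the FKO values. The difference did not pass (log2 fold change -1.04, SE 0.459, edgeR adjusted p = 0.137), but without f/f replicate 2 the log2 fold change was -1.39 with an edgeR adjusted p of 0.0222. It was -0.68 without f/f replicate 3, -0.77 without FKO replicate 1 and -0.57 with the replicate block, with adjusted p-values of 0.304, 0.460 and 0.344 by edgeR. No single f/f library was extreme for all 10 genes. f/f replicate 2 was the highest control for Cdkn1a, Ccng1, Trp53inp1 and Zmat3 and the lowest for Btg2 and Gdf15, while f/f replicate 3 was the highest for Bax, Bbc3, Pmaip1 and Gdf15 and the lowest for Mdm2, Ccng1 and Trp53inp1.

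**Figure D2:**
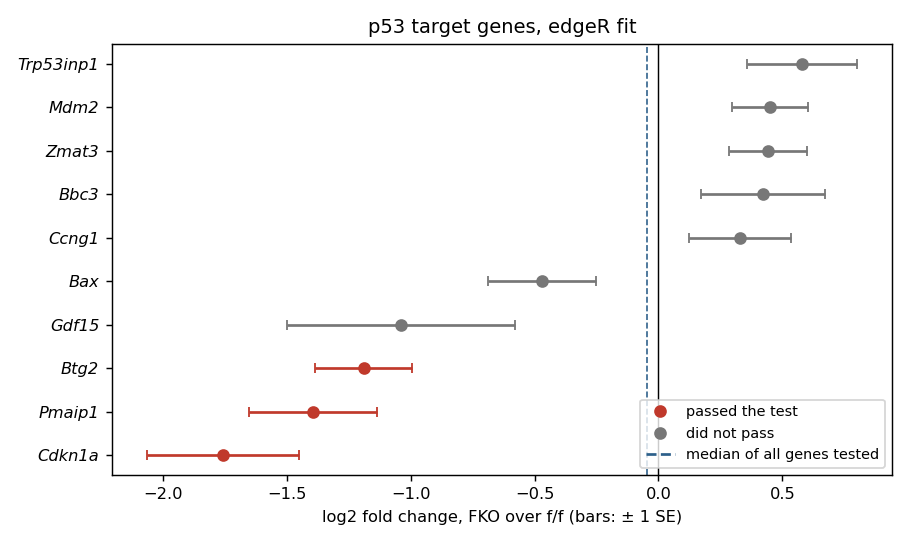
Log2 fold change of FKO over f/f for the 10 genes from the edgeR fit, with bars of ± 1 SE, sorted by size, red where the gene passed the test. Cdkn1a (-1.76), Pmaip1 (-1.39) and Btg2 (-1.19) passed, and the 5 genes from Ccng1 (0.33) to Trp53inp1 (0.58) lie right of 0 without passing. The dashed line is the median of all genes tested, -0.05.

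Levels of different genes were compared in FPKM, which divides by transcript length. In FKO the order was Btg2 at 181 FPKM, Ccng1 at 60.4, Mdm2 at 23.1, Cdkn1a at 16.2, Bax at 15.1, Trp53inp1 at 7.62, Gdf15 at 7.00, Zmat3 at 4.31, Bbc3 at 3.27 and Pmaip1 at 1.25 FPKM. The ranges of Cdkn1a and Bax and those of Trp53inp1 and Gdf15 overlapped there. In f/f the order was Btg2 at 481 FPKM, Cdkn1a at 63.6, Ccng1 at 55.6, Bax at 24.6, Mdm2 at 19.6, Gdf15 at 16.9, Trp53inp1 at 5.92, Pmaip1 at 3.87, Zmat3 at 3.69 and Bbc3 at 2.85 FPKM. Among neighbours in f/f, Btg2 and Cdkn1a, Ccng1 and Bax, and Gdf15 and Trp53inp1 had separate ranges, and the ranges of all other neighbours overlapped. Cdkn1a stood at rank 3574 of 24531 genes by mean FPKM in FKO and at rank 1122 in f/f.

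Cdkn1a is listed as 2 transcripts that start 2790 bases apart and encode the same protein. Variant 1 (NM_007669), from the downstream start, had 1465 and 1365 estimated counts in FKO, against 3621, 9408 and 6463 in f/f, which is 15.1 and 15.4 FPKM in FKO and 42.8, 85.2 and 58.3 FPKM in f/f. Variant 2 (NM_001111099), from the upstream start, had 104 and 72 counts in FKO, against 75, 358 and 65 in f/f. So nearly all Cdkn1a counts in both groups were assigned to the variant whose start lies 2831 bases from the middle of the p53 site, and few to the variant that starts 41 bases from it. The variants end at the same base, with lengths of 1913 and 1943 bases, and their split is an estimate, like the unstable split of Trp53inp1 described below. These distances are positions only and do not show on which start the site acts. In the transcript test, which called 7.06% of 21215 transcripts, variant 1 fell (log2 fold change -1.84, SE 0.337, edgeR adjusted p = 0.0471), but the call was lost under 7 of 10 alternatives, each of the 5 left-out libraries among them. Variant 2 did not pass (log2 fold change -0.57, SE 0.866, edgeR adjusted p = 0.726), and without f/f replicate 2 its sign turned to 0.56. Variant 2 took 6.63% (95% Wilson interval 5.50 to 7.97) and 5.01% (3.998 to 6.26) of the Cdkn1a counts in FKO, against 2.03% (1.62 to 2.54), 3.67% (3.31 to 4.06) and 0.996% (0.782 to 1.27) in f/f. The intervals treat the estimated counts as reads and cover counting error only, and although the FKO shares lie above the f/f shares, edgeR's test of transcript use, which called 1.95% of 3997 genes, gave an adjusted p of 1.00 for Cdkn1a (unadjusted p = 0.544), which does not show that use was equal.

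**Figure D3:**
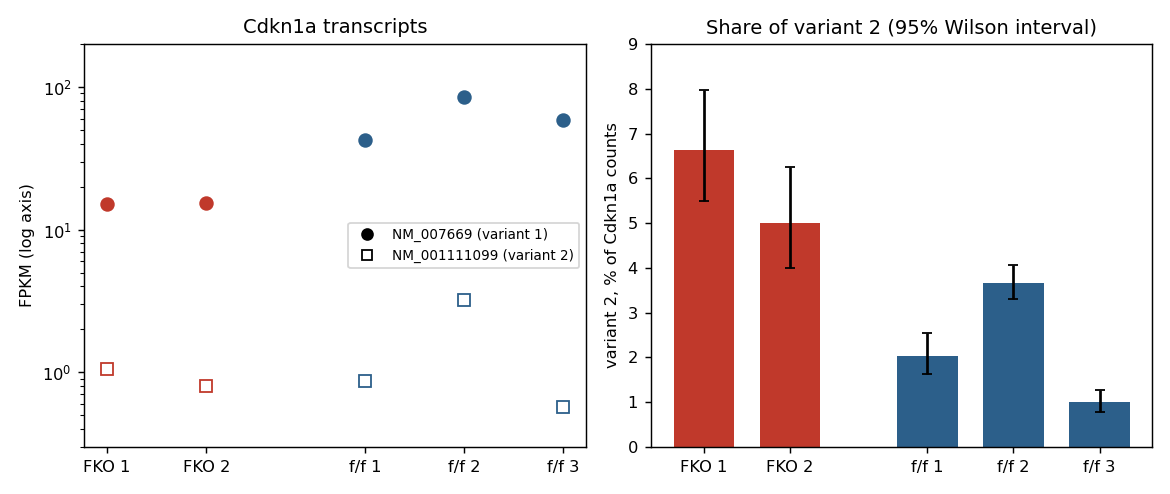
The left panel plots FPKM of the 2 Cdkn1a transcripts per library on a log axis, with variant 1 as filled circles and variant 2 as open squares, and the right panel plots the share of Cdkn1a counts assigned to variant 2 with 95% Wilson intervals. Variant 1 lies at 15.1 and 15.4 FPKM in FKO and at 42.8 to 85.2 FPKM in f/f, and the variant 2 share is 5.01% to 6.63% in FKO and 0.996% to 3.67% in f/f.

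The other members with more than 1 transcript showed no change of use that passed, with an adjusted p of 1.00 for Mdm2, Trp53inp1 and Gdf15. In Mdm2, NM_010786 had 2238 and 2986 counts in FKO, against 2483, 2722 and 2630 in f/f, and NM_001288586 had 1134 and 512 in FKO, against 351, 841 and 589 in f/f. In Trp53inp1, NM_001199105 had 1212 and 1340 counts in FKO, against 658, 851 and 2 in f/f, while NM_021897 had 822 and 624 in FKO, against 698, 1456 and 1469 in f/f. The 2 counts in f/f replicate 3 stand beside an undiminished sister transcript, so the split of counts between transcripts that share most of their length varied between libraries far more than their sum. In Gdf15, NM_011819 had 257 and 437 counts in FKO, against 857, 331 and 1543 in f/f, and NM_001330687 had 157 and 152 in FKO, against 325, 306 and 660 in f/f.

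Around these 10 genes, 12 lists of related genes held 222 genes, of which 218 were tested, 23 rose and 39 fell, with a median log2 fold change of -0.20. These counts, and those of each list below with all 5 libraries, are to be read beside all genes tested. Of those, 11.9% rose and 13.4% fell. Every fit with a library left out called fewer of all genes, so its counts are not to be read beside these shares. Counts at an unadjusted p under 0.05 have no share of all genes beside them here. Over all 12 lists the counts were 6 and 11 without FKO replicate 1, and 6 and 8 without FKO replicate 2. Of the 20 genes tested among p53 and its regulators, 1 rose and 2 fell. Mdm4, the inhibitory partner of MDM2, fell to 16.9 and 23.8 CPM in FKO, against 32.9, 88.0 and 80.6 CPM in f/f (log2 fold change -1.72, edgeR adjusted p = 0.0265), a call that was lost without FKO replicate 1 or 2 or f/f replicate 2 or 3. Trp63, a p53 paralog of epithelia, fell to 0.222 and 0.238 CPM in FKO, against 2.04, 1.92 and 1.19 CPM in f/f (log2 fold change -2.88). Crebbp, an acetyltransferase that works with p53, rose (log2 fold change 0.67, edgeR adjusted p = 0.0446), but 0 genes of this list rose under 9 of the 14 alternatives, among them upper-quartile factors, the replicate block and 4 of the 5 left-out libraries (each but f/f replicate 2).

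Among 37 further p53 targets, 7 rose and 6 fell. The lysosomal fucosidase gene Fuca1 had 54.1 and 44.4 CPM in FKO, against 107.7, 106.5 and 122.3 CPM in f/f, and fell (log2 fold change -1.19, edgeR adjusted p = 0.00409). Plk3, a stress-responsive kinase gene, rose (log2 fold change 1.00), as did Abhd4, a lipid hydrolase gene (0.99), and Fdxr, which encodes the mitochondrial ferredoxin reductase (0.98), with edgeR adjusted p-values of 0.00668, 0.00824 and 0.00953. These counts of 7 and 6 of 37 stand beside 11.9% and 13.4% of all genes. They were 4 and 1 without FKO replicate 1, 0 and 0 without FKO replicate 2, and 3 and 10 with library size alone or on log2(FPKM + 0.1), and 4 rose without f/f replicate 1 and 3 fell without f/f replicate 2.

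Of 16 tested CDK inhibitors and pocket proteins, 2 rose and 2 fell, beside 11.9% and 13.4% of all genes. The counts were 0 and 0 with either FKO library left out, 1 and 0 without f/f replicate 2 and 1 and 1 without f/f replicate 3, and 1 fell without f/f replicate 1. Cdkn2c, which encodes the CDK4 and CDK6 inhibitor p18, rose to 219.8 and 199.1 CPM in FKO, against 133.6, 127.9 and 93.2 CPM in f/f (log2 fold change 0.82, edgeR adjusted p = 0.0203), and Tfdp1, a partner of E2F factors, also rose (0.55). Cdkn1c, which encodes p57, and Rbl1, which encodes the pocket protein p107, fell (log2 fold changes -1.10 and -0.65). Cdkn1b, which encodes p27, had 11.2 and 8.27 CPM in FKO, against 18.2, 13.6 and 14.9 CPM in f/f, just outside the threshold (log2 fold change -0.68, edgeR adjusted p = 0.0511), and was called lower under 6 of 14 alternatives. Of 13 G1 cyclins, kinases and E2F factors, 4 rose, with Cdc25a (1.19) and Ccne1 (1.02) first, and 2 fell, E2f2 (-1.88) and E2f1 (-1.54). These counts were 0 and 0 without FKO replicate 1 and 1 and 0 without FKO replicate 2, 2 rose with library size alone, and 1 fell without f/f replicate 2 or 3. Of 29 genes of proliferation, 0 rose and 3 fell by edgeR, namely Mcm3, Mcm4 and Cenpa (log2 fold changes -0.86, -0.51 and -1.27). At an unadjusted p under 0.05, 1 was higher and 4 were lower, and DESeq2 and limma-voom called 0 higher. With the replicate block, and without f/f replicate 3, 1 rose and 1 fell, while 0 fell with either FKO library left out and 1 fell without f/f replicate 1 or 2.

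In the family of Btg2 and its deadenylase partners, 6 of 7 genes were tested and 0 passed by edgeR. At an unadjusted p under 0.05, 0 were higher and 1 lower, and DESeq2 called 1 lower and limma-voom 0. That gene was Btg1, the closest relative of Btg2, with 327.1 and 232.5 CPM in FKO, against 507.3, 357.6 and 473.3 CPM in f/f (log2 fold change -0.67, SE 0.224, edgeR adjusted p = 0.0660). All FKO values lay below all f/f values, and 6 of 14 alternatives called it lower, among them the replicate block (adjusted p = 0.0352).

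The immediate early genes, with which Btg2 shares its rapid induction, had 8 of 15 genes lower and 0 higher by edgeR, with a median log2 fold change of -0.80. At an unadjusted p under 0.05, 10 were lower and 0 higher, a cut for which the share of all genes is not given. DESeq2 and limma-voom called 9 and 8 lower. Zfp36, whose product destabilises AU-rich messenger RNAs, fell to 840.1 and 670.8 CPM in FKO, against 1525, 1425 and 1614 CPM in f/f (log2 fold change -1.01, edgeR adjusted p = 0.00965). Dusp1, a MAP kinase phosphatase gene, Nr4a1, a nuclear receptor gene, and Ier2 also fell, by 0.90, 0.96 and 0.94 on the log2 scale. The count of lower genes was 3 without FKO replicate 1, 0 without FKO replicate 2 and 5 without f/f replicate 3. The macrophage, mesothelial and fibroblast sums given above were lower in FKO as well, and their part in this list was not tested.

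Of the 15 other BCL2 family genes, 1 rose and 1 fell. The rise was not called without FKO replicate 1. With the stricter filter 0 were higher, and with DESeq2 2 were higher. With upper-quartile factors, library size alone, the stricter filter, DESeq2 or log2(FPKM + 0.1), 3 were lower. Bcl2, the founding anti-death gene, fell to 9.58 and 13.3 CPM in FKO, against 31.1, 36.5 and 28.2 CPM in f/f (log2 fold change -1.48, edgeR adjusted p = 0.00426), and Hrk, a BH3-only gene, rose at a low level, to 1.93 and 1.35 CPM in FKO, against 0.288, 0.408 and 0.328 CPM in f/f. Among 14 genes of the apoptosome and caspases, 4 rose and 1 fell, with 0 higher without FKO replicate 1, 2 higher without FKO replicate 2 and 2 lower without f/f replicate 2. Cycs and Aifm1, both respiratory chain related proteins as well as death factors, rose (log2 fold changes 1.17 and 1.06), and Birc3, an NF-kappaB-induced inhibitor of apoptosis, fell (-1.27). Apaf1, an apoptosome gene that this list does not hold, fell as well (log2 fold change -0.72, edgeR adjusted p = 0.0268). Of 21 DNA repair genes, 1 rose (Xrcc5, 1.06) and 3 fell, the largest of these being Mgmt, the methylguanine repair protein gene, at 1.02 and 0.784 CPM in FKO, against 8.80, 14.4 and 14.3 CPM in f/f (log2 fold change -3.78), beside Xpa (-1.02) and Rad50 (-0.92). With either FKO library left out 1 repair gene fell.

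Genes often used to describe senescence, which p21 can enforce, had 9 of 19 lower and 0 higher by edgeR, with a median log2 fold change of -1.08. At an unadjusted p under 0.05, 14 were lower and 0 higher, a cut for which the share of all genes is not given. DESeq2 and limma-voom called 13 and 7 lower. Glb1, the gene of lysosomal beta-galactosidase, fell to 6.40 and 8.82 CPM in FKO, against 41.3, 43.6 and 47.7 CPM in f/f (log2 fold change -2.54, SE 0.193, edgeR adjusted p = 0.000932). The secreted factors Ccl2, Cxcl2 and Igfbp7 fell as well (log2 fold changes -1.52, -1.59 and -1.06). With either FKO library left out fewer genes of this list were called lower, and fewer of all genes were called too. Macrophages and fibroblasts also express most of these secreted factors. The sums of their markers given above were lower in FKO too, and the relation of this list to them was not tested.

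**Figure D4:**
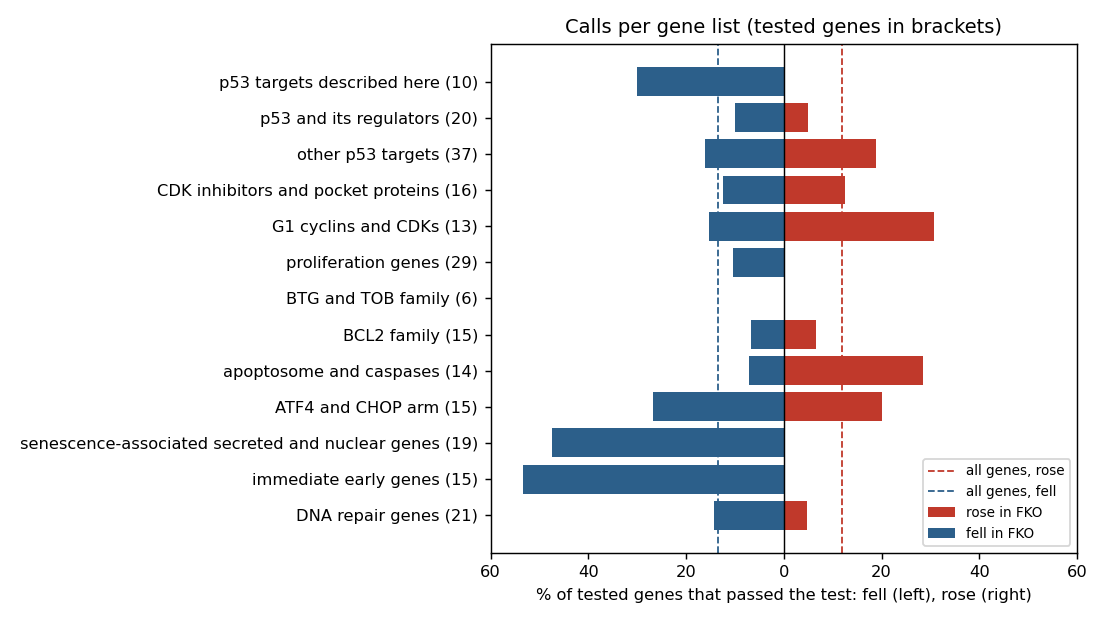
Share of tested genes that fell (bars to the left) and rose (bars to the right) in FKO against f/f, for the 10 p53 targets and 12 related lists, with the number tested in brackets and dashed lines at 13.4% and 11.9% of all genes. With all 5 libraries the immediate early list (8 of 15) and the senescence-associated list (9 of 19) reach furthest to the left, and the G1 cyclin list (4 of 13) and the apoptosome list (4 of 14) furthest to the right. The apoptosome list does not hold Apaf1, which fell.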

How the data were processed

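Libraries of poly-A RNA (TruSeq) were read on a HiSeq4000 instrument, per the labels' protocols. The submitters' processing notes name HISAT2 2.1.0, HISAT, Bowtie2, StringTie 1.3.4d and the build mm10 without saying what each was used for. The authors deposited 1 table with estimated counts, whole numbers per RefSeq transcript without scaling between samples, and FPKM values, scaled for transcript length and depth, per the file headers. A single emptied row was left out. Counts were summed per gene identifier, so overlapping genes and antisense reads can be mixed, since strand use is not given in the sources used here.

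Groups and replicate numbers came from the titles. Genes were tested with edgeR 4.0.16 (R 4.3.3) by quasi-likelihood, TMM factors and filterByExpr, on all 5 libraries with genotype as the sole term, and adjusted over all 14492 genes. The standard error is the log2 fold change over the square root of F. Transcripts were tested likewise (21215), and transcript use with diffSpliceDGE. Genes were named by rule: all 10 p53 targets, up to 4 called genes with the smallest p per list, and Trp53, Mdm4, Cdkn1b, Btg1 and Prmt1. Not every gene the rule names is given. The genes and lists were chosen with earlier results of these data known. Alternatives were RLE and upper-quartile factors, library size alone, no and a stricter filter, the replicate block, each library left out, DESeq2 1.42.0, limma-voom (limma 3.58.1) and limma on log2(FPKM + 0.1).

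No 2 libraries of a group were copies: their counts gave a median chi-square of 4.07 to 18.2 per gene, where sampling noise gives 0.455. The scripts of the gene, transcript and transcript use tests were run on simulated data with set changes. With the spread estimated from these data, most set changes of transcripts and of transcript use were missed, as were most smaller ones of genes. The share of false gene calls there was above the threshold. With a smaller assumed spread more changes were found. A transcript or use result that did not pass therefore does not show a lack of change.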

Additional observations from a re-analysis of the deposited data

How the results depend on the processing

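No p53 target changed sign under any of the 14 alternatives, but the calls rest on both FKO libraries. The number of the 10 genes that fell ran from 0 (without FKO replicate 2) to 4 (without f/f replicate 2, where Gdf15 joined) and was 1 without FKO replicate 1, and the number that rose ran from 0 to 2 over the left-out libraries (2 without f/f replicate 2) and was 1 with DESeq2. Of the other pathway genes, 6 to 21 rose and 8 to 33 fell over the left-out libraries (23 and 39 with all 5), 12 rose and 58 fell with library size alone, and 14 rose and 58 fell on log2(FPKM + 0.1). The call of Cdkn1a variant 1 was lost with no filter (-1.84, adjusted p = 0.0567), with the replicate block (-1.83, adjusted p = 0.192) and with any library left out (-2.04 to -1.51). Signs turned for Cdkn1a variant 2 without f/f replicate 2 (-0.98 to 0.56 over the left-out libraries), for the use of Gdf15 NM_001330687 without f/f replicate 2 (0.058) or FKO replicate 2 (range -0.21 to 0.18), for the use of Mdm2 NM_001288586 without FKO replicate 1 (range -0.21 to 0.62) and for the median of the 10 genes without FKO replicate 1 (range -0.20 to 0.052). The cause of these changes was not tested, and every fit with a library left out called fewer of all genes. Deviations from the group means of libraries with the same number had r of 0.0657 and -0.0812 for replicates 1 and 2. With 2 FKO libraries the FKO deviations mirror each other, and f/f replicate 3 has no partner. These r values therefore cannot settle whether libraries with the same number belong together, and the labels pair them by number only. With the replicate block 3278 genes were called in place of 3674, and Cdkn1b (adjusted p = 0.0282) and Btg1 (adjusted p = 0.0352) were called. The log2 fold change of Cdkn1a ran from -1.98 to -1.42, that of Btg2 from -1.42 to -1.003 and that of Pmaip1 from -1.63 to -1.17 over the 14 alternatives. Variant 2 of Cdkn1a rests on 65 to 358 counts per library, and its share differed between f/f libraries by more than the counting intervals.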

Other observations

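Genes of the ATF4 and CHOP arm of the stress response, which shares some targets with p53, had called genes on both sides. Of 15 tested, 3 rose and 4 fell, beside 11.9% and 13.4% of all genes tested. Chac1, a glutathione-degrading enzyme gene, rose to 58.3 and 69.3 CPM in FKO, against 20.7, 14.7 and 16.1 CPM in f/f (log2 fold change 1.89, SE 0.185, edgeR adjusted p = 0.0016), and Asns, the asparagine synthetase gene, rose too (0.78). Ddit4, an inhibitor of mTORC1 signalling, fell to 8.98 and 11.1 CPM in FKO, against 30.6, 25.0 and 45.3 CPM in f/f (-1.74), and Sesn2, a leucine sensor that is also a p53 target, fell as well (-0.77). Without FKO replicate 1 the list had 1 higher and 0 lower, and without FKO replicate 2 it had 1 higher and 1 lower.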
